A study of Mus musculus with 4 samples.

Results

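Mouse replication-dependent histone genes were described in cultured erythroblasts, across 3 RNA sequencing libraries. The members were all entries of the authors' deposited expression table whose symbol begins with Hist1h, Hist2h, Hist3h or Hist4h. They numbered 67 of the 23234 entries in the table: 6 linker H1, 18 H2A, 18 H2B, 12 H3 and 13 H4. The cells were extensively self-renewing erythroblasts: young cells of the red lineage that keep dividing in culture. The first library came from proliferating cells with a short hairpin RNA against Setd8. The second came from cells with a non-targeting hairpin, put into maturation medium 6 h before RNA was collected. The reference for both came from proliferating cells with the same non-targeting hairpin. All cells thus carried a hairpin, and each group was 1 library, so no difference had a replicate check. Maturing knockdown cells, the remaining group, were not analysed here. Levels were in FPKM (fragments per kilobase of gene model, scaled to the library's fragments). Calls of differential expression were those of the authors' deposited table, made at a q-value (adjusted p) of at most 0.05.

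Histones are the small basic proteins that package DNA. A nucleosome core holds H2A, H2B, H3 and H4 in equal amounts, and H1 binds the DNA between cores. Replication-dependent histone genes lie in clusters, have mostly no introns, and are transcribed in S phase, when new DNA must be packaged. Their mRNAs end in a conserved stem-loop in place of a poly(A) tail, and that stem-loop is bound by the protein Slbp. Some of these genes are also known in human cells to give polyadenylated mRNAs as cells differentiate. Setd8 places a single methyl group on a lysine in the tail of H4, so H4 is the substrate of the enzyme that was knocked down. Red cell precursors divide rapidly and then condense their chromatin during maturation.

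By the coordinates of the deposited table (mm9), 53 members lay on chromosome 13 between 21807632 and 24026720, the Hist1 cluster. Another 10 lay on chromosome 3 between 96023839 and 96074115, the Hist2 cluster. Chromosome 11 held 3 members between 58762413 and 58770176, and chromosome 6 held 1, Hist4h4, from 136750074 to 136752952. Of the 64 entries that name a single gene, 31 spanned exactly the coding sequence, with no untranslated bases, and 11 were over 1000 bases longer than it.

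The 3′ stem-loop is shown first, because it sets these mRNAs apart and differs in sequence between H4 and the other types. All 67 symbols were found in the GENCODE M21 transcripts (GRCm38). A 16-base pattern of the histone stem-loop, with its variable positions left free, followed the stop codon in 44 of them: 4 of 6 H1, 11 of 18 H2A, 10 of 18 H2B, 9 of 12 H3 and 10 of 13 H4. Among the other 23 members, 14 had annotated transcripts that ended within 30 bases of the coding sequence, so no stem-loop could have been read. Searched at any position, the pattern was held by 111 of all 141767 transcripts (0.0783%), and 46 of those 111 were transcripts of members. In the 44 members it began 21 to 58 bases after the stop codon, with a median of 31. One example of each type follows, with the stem-loop in capitals and the commonest H4 form last. Each is the most abundant member of its type for which the pattern was found, except Hist1h4c.
Hist1h1c (H1): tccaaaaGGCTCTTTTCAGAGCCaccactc
Hist1h2ad (H2A): aaacaaaGGCTCTTTTCAGAGCCatccact
Hist1h2bk (H2B): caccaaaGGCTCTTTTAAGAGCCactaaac
Hist1h3d (H3): ccccaaaGGCTCTTTTCAGAGCCacccccg
Hist1h4a (H4): aaccaaaGGCCCTTCTCAGGGCCgcccaca
Hist1h4c (H4): aacaaaaGGCCCTTTTCAGGGCCacccaca

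The stem-loops of all 10 H4 genes with a match began with GGCC, and those of all 34 matched genes of the other types with GGCT. The form in Hist1h1c was the commonest, in 26 genes. The form in Hist1h4c was found in 7 H4 genes.

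Promoters are shown because their motifs differed by histone type. A link between these motifs and the values of the members was not tested. RefSeq promoter windows (GRCm38.p6, 250 bases before to 50 after the start) were matched for 60 members. Each motif was searched on both strands, and 2 different motifs overlapped in 1 of the 61 windows. The CCAAT box was in all 6 H1, all 17 H2A, all 15 H2B and all 10 H3 genes, but in 3 of 12 H4 genes, against 37.4% of all 32851 windows. GGTCCG, part of an element known from H4 promoters, was in 11 of 12 H4 genes and in 2 of the 48 others, against 8.25% of all windows. ATGCAAAT, the octamer known from H2B promoters, was in 7 of 15 H2B and 7 of 17 H2A genes, against 1.74% of windows, and in no H1, H3 or H4 gene. AAACACA, known from H1 promoters, was in 5 of 6 H1 genes and 4 others, against 7.18% of windows. TATAAA was in 35 of the 60 genes, against 13.6% of windows. The 150 bases upstream of the start are given for the most abundant H1, H2B, H3 and H4 genes, with these motifs in capitals. That of Hist1h2bk overlaps the promoter of Hist1h2ah, the most abundant H2A gene of the knockdown library, on the other strand.
Hist1h1c (H1; chr13:23738657-23738806, plus strand): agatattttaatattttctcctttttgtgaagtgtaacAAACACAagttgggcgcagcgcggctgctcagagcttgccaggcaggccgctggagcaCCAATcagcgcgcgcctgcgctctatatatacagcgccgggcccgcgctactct
Hist1h2bk (H2B; chr13:22035671-22035820, plus strand): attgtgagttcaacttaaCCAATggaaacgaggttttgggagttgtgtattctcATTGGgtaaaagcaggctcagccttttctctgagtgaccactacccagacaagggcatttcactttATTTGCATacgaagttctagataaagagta
Hist1h3d (H3; chr13:23575613-23575762, plus strand): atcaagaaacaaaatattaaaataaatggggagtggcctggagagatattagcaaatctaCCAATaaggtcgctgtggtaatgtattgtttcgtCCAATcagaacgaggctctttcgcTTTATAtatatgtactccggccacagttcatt
Hist1h4k (H4; chr13:21750554-21750703, minus strand): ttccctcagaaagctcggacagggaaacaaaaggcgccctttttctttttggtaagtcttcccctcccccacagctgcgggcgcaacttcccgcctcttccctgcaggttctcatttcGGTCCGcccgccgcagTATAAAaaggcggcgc

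These genes are near-identical copies within a type, so fragments are shared among them and the level of a single copy is uncertain. In pairs of coding sequences of equal length, the median identity was 96.4% for H2A, 94.8% for H2B, 97.6% for H3 and 93.9% for H4. Shared 50-base words were counted in coding sequences only, and bases outside them were not compared. The median share of such words also found in another gene of the type was 83.3% for H2A, 72.2% for H2B, 84.7% for H3 and 70.3% for H4. For H1 it was 10.9%, and no member shared such a word with another type. Values of whole types therefore depend less than those of single copies on how fragments were divided among copies. They still depend on whether fragments with several matches were kept, and the share of such sequence differs by type. The members of a type are not independent measurements. Of the aligner, the read length and the treatment of fragments with several matches, nothing is known from the labels. The locus deposited for Hist1h1e was also that of Hist1h2be, so fragments of this H1 and this H2B gene may have been assigned within 1 region.

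At least 1 FPKM was reached in some library by 62 of the 67 members, and 51 reached 5 FPKM. The 5 below 1 FPKM in every library were the testis genes Hist1h1t and Hist1h2aa with Hist2h2bb, Hist2h4 and Hist4h4. All members summed to 3099 FPKM in the knockdown library and 2691 FPKM in the maturing control, against 2418 FPKM in the proliferating control. That was 1.82% of all FPKM in knockdown cells and 1.52% in the maturing control, against 1.37% in the proliferating control.

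The types differed widely in level per length, although a nucleosome uses the core types in equal amounts. H3 genes summed to 1224 FPKM in knockdown cells and 1208 FPKM in the maturing control, against 1081 FPKM in the proliferating control. H2A genes summed to 1480 FPKM in knockdown cells and 1179 FPKM in the maturing control, against 1043 FPKM in the proliferating control. H2A and H3 thus held most of the histone FPKM in each library. H4 genes summed to 199 FPKM in knockdown cells and 173 FPKM in the maturing control, against 195 FPKM in the proliferating control. H2B genes summed to 178 FPKM in knockdown cells and 119 FPKM in the maturing control, against 85.9 FPKM in the proliferating control. H1 genes, the linker histones, summed to 18.6 FPKM in knockdown cells and 12.8 FPKM in the maturing control, against 12.6 FPKM in the proliferating control. The order of the sums was H2A, H3, H4, H2B, H1 in the knockdown. H3 came before H2A in both controls. H2B sums were 8.32 times smaller than H2A sums in the knockdown and 9.88 times in the maturing control, against 12.1 times in the proliferating control.

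**Figure D1:**
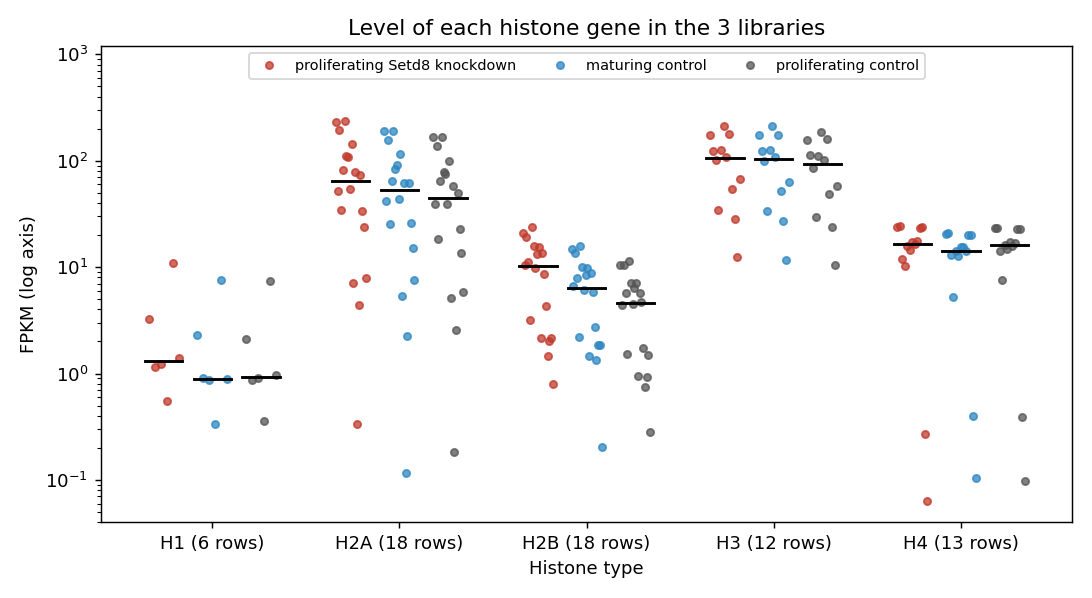
FPKM of each of the 67 histone entries (log axis) by type, with the knockdown in red, the maturing control in blue and the proliferating control in grey, and the median of each group as a black bar. H2A and H3 genes sit highest, and the H2B median is 10.1 FPKM in the knockdown, 6.31 FPKM in the maturing control and 4.61 FPKM in the proliferating control.

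The knockdown was set against the proliferating control to see the effect of depleting Setd8. Setd8 itself stood at 9.28 FPKM in knockdown cells and 25.1 FPKM in the proliferating control, and the authors' deposited table called it lower with an adjusted p (q) of 0.0122. No histone gene was called in that table, out of 64 tested, beside 9.05% of all 11665 entries tested (5.81% higher and 3.24% lower). The values nevertheless differed by type: H2B genes together stood at 2.07 times the control level, H1 genes at 1.47 times, H2A genes at 1.42 times, H3 genes at 1.13 times and H4 genes at 1.02 times. Higher values were held by 59 of 62 measured members, among them all 17 H2B, all 17 H2A, all 12 H3 and all 5 H1 genes. The 3 lower values were all of H4 genes. Over all 9611 genes measured at 1 FPKM or more, 44.3% had a higher value. The median log2 ratio of FPKM + 1 was 0.43 over the measured members and -0.05 over all measured genes. The authors' model gave the members standard errors of 0.42 to 0.95 on the log2 scale (median 0.54), and the ratio of each tested H3 and H4 gene lay within 1 standard error of 0.

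H2B genes had the highest ratios. Hist1h2bk, the most abundant of them, stood at 23.6 FPKM in knockdown cells and 15.9 FPKM in the maturing control, against 11.5 FPKM in the proliferating control. Its knockdown ratio in the authors' deposited table was 1.04 on the log2 scale, with a q of 0.438. Hist1h2bc had the highest ratio among members at 5 FPKM or more. It stood at 13.5 FPKM in knockdown cells and 8.80 FPKM in the maturing control, against 5.73 FPKM in the proliferating control. The deposited q of Hist1h2bc for the knockdown was 0.234. The median log2 ratio of FPKM + 1 over the 17 measured H2B genes was 0.94, and they ranged from 0.35 to 1.11. A ratio of 1 or more was held by 4 members, all of them H2B genes (Hist1h2bc, Hist1h2bm, Hist1h2bj and Hist1h2bf), while 4.38% of all measured genes reached that size in the same direction and 2.6% in the other. The count of 4 became 11 with a pseudocount of 0.1 FPKM, 0 with one of 5 FPKM and 9 when the libraries were centred on abundant genes. An unadjusted p under 0.05 was held by 8 of the 64 tested members, all H2B and all higher, beside 9.34% of all tested entries that were higher and 5.38% that were lower by that measure. The lowest q among these was 0.189, that of Hist1h2ba, a histone gene known from testis. It stood at 4.27 FPKM in knockdown cells and 2.72 FPKM in the maturing control, against 1.75 FPKM in the proliferating control.

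The 3 measured H2B genes outside the chromosome 13 cluster had the lowest ratios on the scale with a pseudocount, and all 3 were low in level. Hist2h2be shared no 50-base word of its coding sequence with another H2B gene. It stood at 2.17 FPKM in knockdown cells and 1.86 FPKM in the maturing control, against 1.49 FPKM in the proliferating control. This was a log2 ratio of FPKM + 1 of 0.35 for the knockdown. Hist3h2ba and Hist3h2bb-ps had ratios of 0.50 and 0.65 on that scale. By its symbol Hist3h2bb-ps is a pseudogene, counted here with the H2B genes. The pseudocount shrinks the ratios of low genes: Hist2h2bb, which stayed below 1 FPKM in all 3 libraries and is not among the 17, had a deposited log2 ratio of 1.52, the highest of the H2B genes, with a q of 0.231 in the authors' deposited table.

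H2A genes had intermediate ratios that lay close together. Hist1h2ah stood at 238.9 FPKM in knockdown cells and 188 FPKM in the maturing control, against 168 FPKM in the proliferating control. The neighbour in rank, Hist1h2ai, stood at 233 FPKM in knockdown cells and 188 FPKM in the maturing control, against 166 FPKM in the proliferating control. Both had the same order of libraries, with the knockdown highest. The median log2 ratio of FPKM + 1 over 17 measured H2A genes was 0.49, and it was 0.50 for Hist1h2ah and 0.49 for Hist1h2ai. The widest departure was the entry shared by Hist1h2ao and Hist1h2ap, at 0.87. Hist3h2a, of the small chromosome 11 cluster, shared 12.2% of the 50-base words of its coding sequence with other H2A genes. It had a log2 ratio of FPKM + 1 of 0.58. Its levels were 4.37 FPKM in knockdown cells and 2.25 FPKM in the maturing control, against 2.59 FPKM in the proliferating control.

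H1 genes were low, and 1 of 6 reached 5 FPKM. Hist1h1c, the most abundant linker histone gene here, stood at 10.97 FPKM in knockdown cells and 7.498 FPKM in the maturing control, against 7.40 FPKM in the proliferating control. Hist1h1b stood at 3.29 FPKM in knockdown cells and 2.30 FPKM in the maturing control, against 2.12 FPKM in the proliferating control. For the knockdown their deposited q-values were 0.980 for Hist1h1c and 0.940 for Hist1h1b. The knockdown library was the highest of the 3 for all 6 H1 genes.

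H3 genes had ratios near 0 with the least spread of any type. Hist1h3d, the most abundant, stood at 214 FPKM in knockdown cells and 209.9 FPKM in the maturing control, against 187 FPKM in the proliferating control. The 12 H3 genes ranged from 0.11 to 0.25 in log2 ratio of FPKM + 1, with a median of 0.19 and a standard deviation between genes of 0.04. H4 genes, whose product is the target of Setd8, had a median of 0.04 over 11 measured genes. Hist1h4k, the most abundant, stood at 24.2 FPKM in knockdown cells and 20.99 FPKM in the maturing control, against 23.6 FPKM in the proliferating control. The authors' model gave Hist1h4k a standard error of 0.56 on the log2 scale around a deposited log2 ratio of 0.04 for the knockdown. The lowest and the highest H4 ratio came from the 2 entries that name Hist1h4n, at separate positions: -0.24 for the one that names Hist1h4m as well and 0.41 for the one of Hist1h4n alone, which the deposited table did not test.

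**Figure D2:**
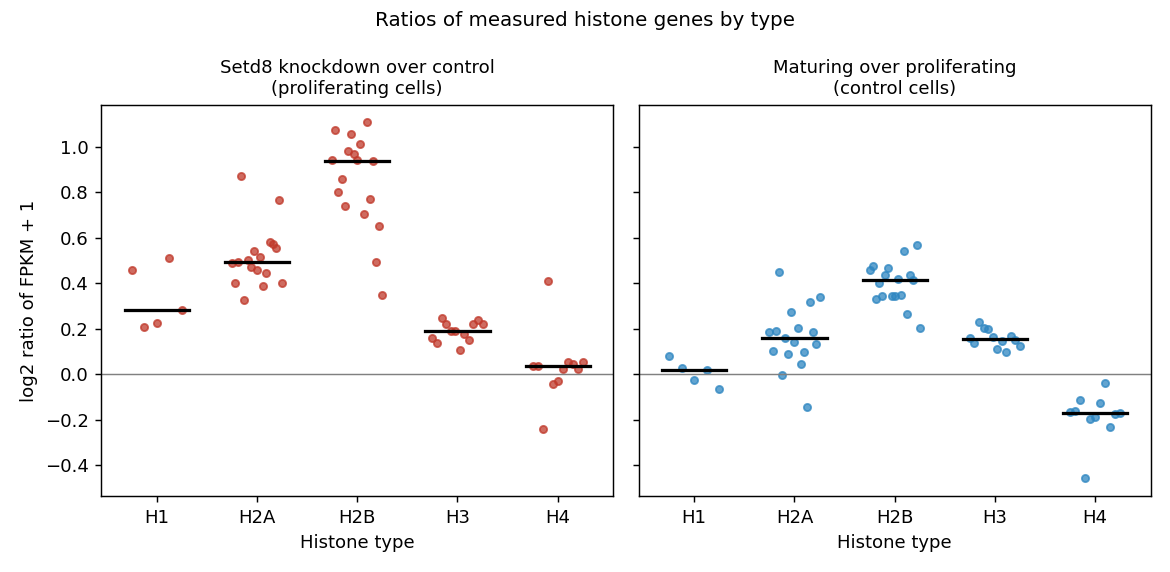
Log2 ratio of FPKM + 1 of each measured histone gene by type, for the knockdown over the proliferating control (left) and the maturing over the proliferating control (right), with the median of each type as a black bar. The H2B median is the highest in both panels, at 0.94 and 0.41, and the H4 median the lowest of the core types, at 0.04 and -0.17.

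The maturing control was set against the proliferating control to see the effect of 6 h in maturation medium. No histone gene was called in the authors' deposited table, out of 64 tested, beside 1.75% of all 11298 entries tested (0.584% higher and 1.17% lower). None had an unadjusted p under 0.05, beside 2.17% of all tested entries that were higher and 2.73% that were lower by that measure. H2B genes together stood at 1.39 times the level in the proliferating control, H2A genes at 1.13 times, H3 genes at 1.12 times, H1 genes at 1.01 times and H4 genes at 0.884 times. Higher values were held by 47 of the 62 measured members, among them all 17 H2B and all 12 H3 genes, beside 52.6% of all measured genes. Lower values were held by all 11 measured H4 genes, 2 H2A genes and 2 H1 genes. Median log2 ratios of FPKM + 1 were 0.41 for H2B, 0.16 for H2A, 0.15 for H3, 0.02 for H1 and -0.17 for H4. The H1 median was slightly below 0, at -0.0012, with no filter on low values. No member reached 1 on that scale in either direction, beside 0.52% of all measured genes that did so upward and 1.14% downward. The highest ratio among members at 5 FPKM or more was again that of Hist1h2bc, at 0.54, and the lowest that of the untested entry of Hist1h4n, at -0.46. The median standard error of the authors' model, 0.54, was larger than the median ratio of every type. The 2 comparisons share the proliferating control library, so a like order of the types in both is not independent evidence.

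The authors' deposited table also set the knockdown directly against the maturing control, where hairpin and medium differ together. The rows of this comparison run alphabetically and end at Slc2a13, so they cover 19067 of the 23234 entries. All 67 histone entries are among them, but its share of calls over all entries leaves out names later in the alphabet. It called no histone gene, out of 64 tested, beside 11.6% of all 9241 entries tested (7.22% higher and 4.38% lower). H2B genes together stood at 1.49 times the maturing control level, H1 genes at 1.45 times, H2A genes at 1.26 times, H4 genes at 1.15 times and H3 genes at 1.01 times. Hist2h2bb alone had an unadjusted p under 0.05, with a q of 0.0768, beside 11.2% of tested entries that were higher and 7.39% that were lower by that measure. No member reached a log2 ratio of FPKM + 1 of 1 in size, beside 5.71% of measured genes upward and 3.51% downward.

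Many H2A and H2B genes lie head to head and share the promoter region between them, which allows the types to be compared within pairs. In the deposited coordinates, with strands from GENCODE, 12 such pairs had 167 to 334 bases between the 2 genes. The pair of Hist3h2a includes a pseudogene by its symbol, Hist3h2bb-ps, and had the largest maturation difference on the scale of FPKM + 1, 0.71. In the knockdown the H2B partner had the higher log2 ratio of FPKM + 1 in 11 of 12 pairs, with a median difference of 0.46. Without a pseudocount it was also higher in 11 of 12, with a median difference of 0.52. The H2A entry paired with Hist1h2br, that of Hist1h2ap, was not tested in the deposited table. The tested entry at the same interval, which names Hist1h2ao and Hist1h2ap, had a ratio of 0.87 for the knockdown and 0.45 for maturation, above those of Hist1h2br at 0.74 and 0.34. With that entry in its place the H2B partner was higher in 10 of 12 pairs for the knockdown and 11 of 12 for maturation, and without a pseudocount in 11 of 12 and 12 of 12. In the pair of Hist1h2ah and Hist1h2bk the ratios were 0.50 for the H2A gene and 0.98 for the H2B gene. The exception was the pair of Hist2h2ac, at 0.56, and Hist2h2be, at 0.35. For maturation the H2B partner was higher in 12 of 12 pairs, with a median difference of 0.27, but by only 0.02 in the pair of Hist2h2ac and Hist2h2be. Within a pair the H2A gene had the higher level in 10 of 12 pairs in each library. In the other pairs, Hist1h2aa with Hist1h2ba and Hist1h2ac with Hist1h2bc, the H2B gene was higher. The pairs share sequence with each other as described above, so they are not replicates, and the difference between partners was not tested.

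**Figure D3:**
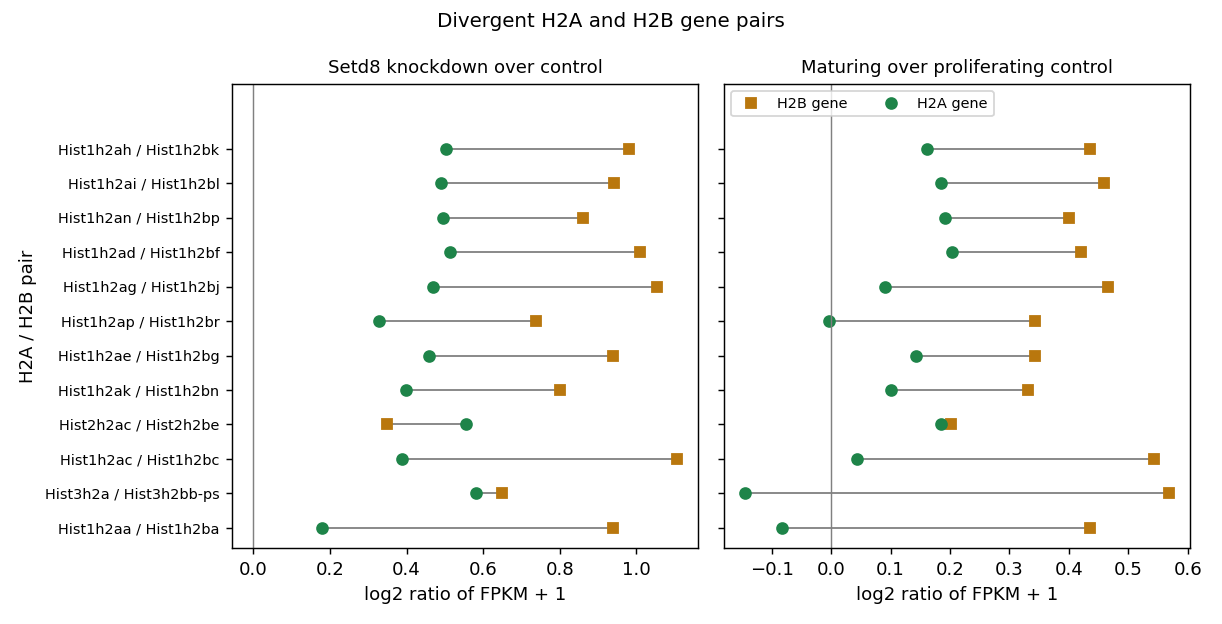
Log2 ratios of FPKM + 1 for the H2A gene (green circle) and the H2B gene (orange square) of 12 divergent pairs, for the knockdown (left) and maturation (right) over the proliferating control, ordered by the H2A level in the proliferating control. The square lies to the right of the circle in 11 of 12 pairs on the left and 12 of 12 on the right, with the untested entry of Hist1h2ap paired with Hist1h2br; with the tested entry at its interval the counts are 10 and 11.

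Genes of DNA synthesis, the process that replication-dependent histones accompany, had values in the other direction in the knockdown. Lower values were found for 38 of 42 S phase and DNA synthesis genes, beside 55.6% of all measured genes. The median of the list was -0.33 on the scale of FPKM + 1, against -0.05 over all measured genes. None of the list was called for the knockdown in the authors' deposited table, beside 9.05% of all entries tested. Mcm3, a subunit of the replicative helicase, stood at 17.4 FPKM in knockdown cells and 37.7 FPKM in the maturing control, against 31.8 FPKM in the proliferating control, with a q of 0.264 for the knockdown. Pcna, the sliding clamp of DNA polymerase, stood at 109.6 FPKM in knockdown cells and 132 FPKM in the maturing control, against 123 FPKM in the proliferating control. Mki67, a marker of cycling cells, stood at 25.1 FPKM in knockdown cells and 40.6 FPKM in the maturing control, against 29.1 FPKM in the proliferating control. For maturation, 36 of the 42 were higher in value (median 0.31), beside 52.6% of all measured genes. None was called, beside 1.75% of all entries tested. The knockdown set against the maturing control holds 39 of the 42. The authors' deposited table called 1 gene of this list there, the origin licensing gene Cdc6, as lower. Over all entries tested in that comparison, 11.6% were called and 4.38% were called lower. Cdc6 stood at 3.76 FPKM in knockdown cells and 11.5 FPKM in the maturing control, with a q of 0.00577.

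The machinery that makes histone mRNA had no called gene in the knockdown or in maturation, nor among the 27 of its 36 entries that the comparison of knockdown with maturing control holds. Over all entries tested, 9.05% were called in the knockdown, 1.75% in maturation and 11.6% in that comparison. Of the 33 measured genes of the list, 25 had a lower value in the knockdown (median -0.20), beside 55.6% of all measured genes. In maturation 21 were higher in value (median 0.02), beside 52.6% of all measured genes. Slbp, which binds the stem-loop, stood at 20.6 FPKM in knockdown cells and 29.5 FPKM in the maturing control, against 23.4 FPKM in the proliferating control. Npat, the coactivator of histone transcription in S phase, stood at 2.72 FPKM in knockdown cells and 3.46 FPKM in the maturing control, against 3.26 FPKM in the proliferating control. Both genes were lowest in value in knockdown cells. Casp8ap2 (Flash), a factor of 3′ end processing, stood at 3.22 FPKM in knockdown cells and 3.84 FPKM in the maturing control, against 4.04 FPKM in the proliferating control. Lsm10, a subunit of the particle that directs the cut, stood at 11.02 FPKM in knockdown cells and 11.8 FPKM in the maturing control, against 10.9 FPKM in the proliferating control. Its partner Lsm11 was below 1 FPKM in all 3 libraries.

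Histone chaperones, which carry new histones to DNA, had 22 of 30 measured genes lower in value in the knockdown, beside 55.6% of all measured genes. Their median was -0.18 and none was called, beside 9.05% of all entries tested. Nasp, a chaperone that holds the reserve of H3 and H4, stood at 9.28 FPKM in knockdown cells and 14.8 FPKM in the maturing control, against 15.1 FPKM in the proliferating control. Asf1b, which hands H3 and H4 on, stood at 14.9 FPKM in knockdown cells and 23.9 FPKM in the maturing control, against 23.7 FPKM in the proliferating control. The knockdown was lowest for both, with q-values of 0.625 for Nasp and 0.691 for Asf1b. Chaf1a, of the complex that deposits histones at replication forks, stood at 7.53 FPKM in knockdown cells and 12.4 FPKM in the maturing control, against 10.7 FPKM in the proliferating control. For maturation 17 of the 30 were higher in value (median 0.03), beside 52.6% of all measured genes (median 0.01).

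Variant histones, which are mostly made from polyadenylated mRNA and not only in S phase, were split in direction in the knockdown. Of 9 measured variants, 4 had a higher and 5 a lower value in the knockdown, beside 44.3% of all measured genes higher and 55.6% lower. The median of the variants, -0.08, became 0.01 when the libraries were centred on abundant genes. For maturation 7 of the 9 were higher in value (median 0.12), beside 52.6% of all measured genes. No variant was called in any comparison. Over all entries tested, 9.05% were called in the knockdown, 1.75% in maturation and 11.6% between knockdown and maturing control. H2afz, a variant of H2A found at promoters, stood at 331 FPKM in knockdown cells and 297 FPKM in the maturing control, against 435 FPKM in the proliferating control. H1f0, a linker histone known to accumulate in differentiating cells, stood at 16.5 FPKM in knockdown cells and 14.1 FPKM in the maturing control, against 11.9 FPKM in the proliferating control. In the knockdown and in both controls H1f0 stood above Hist1h1c per length. H2afx, whose mRNA is known with either kind of end, stood at 37.9 FPKM in knockdown cells and 37.0 FPKM in the maturing control, against 33.4 FPKM in the proliferating control. H3f3a stood at 163 FPKM in knockdown cells and 205 FPKM in the maturing control, against 188 FPKM in the proliferating control, and H3f3b, which encodes the same H3 variant, at 101 FPKM in knockdown cells and 103 FPKM in the maturing control, against 90.4 FPKM in the proliferating control. Cenpa, the H3 variant of centromeres, stood at 10.3 FPKM in knockdown cells and 20.3 FPKM in the maturing control, against 15.0 FPKM in the proliferating control. H1fx was below 0.1 FPKM in all 3 libraries.

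Of the H4 lysine methylation list, only Setd8, the target of the hairpin, was called for the knockdown. Over all entries tested, 9.05% were called. A lower value was held by 8 of the 10 measured genes of the list (median -0.31), beside 55.6% of all measured genes. For maturation 8 of the 10 were higher in value (median 0.04), beside 52.6% of all measured genes. None was called, beside 1.75% of all entries tested.

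**Figure D4:**
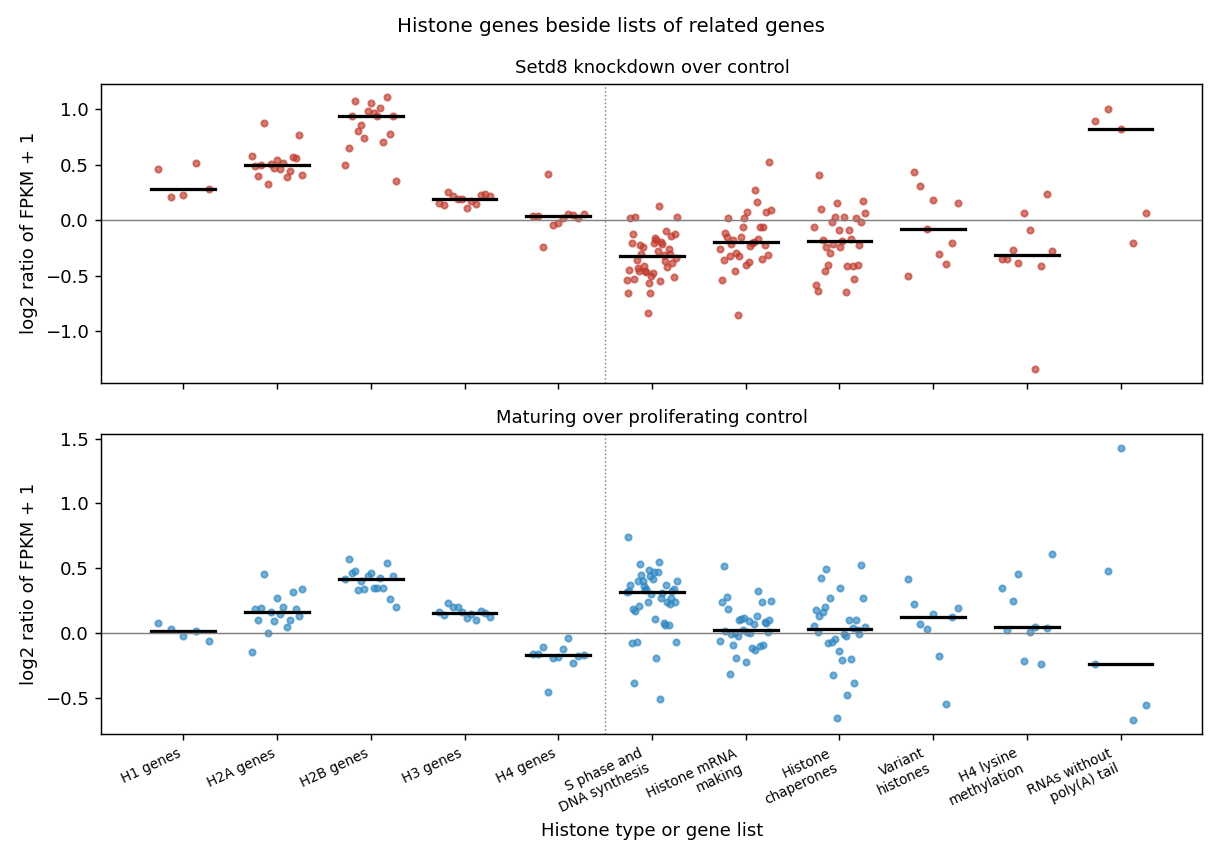
Log2 ratio of FPKM + 1 of measured histone genes by type (left of the dotted line) and of measured genes in 6 related lists (right of it), for the knockdown (top) and maturation (bottom) over the proliferating control, with medians as black bars. In the knockdown the S phase list has a median of -0.33 while the H2B genes have one of 0.94; in maturation these medians are 0.31 and 0.41.

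Because most replication-dependent histone mRNAs lack a poly(A) tail, their level depends on how RNA was selected for the library, a step the labels do not describe. Rn45s, a precursor of ribosomal RNA that also lacks such a tail, stood at 190.5 FPKM in knockdown cells and 133 FPKM in the maturing control, against 95.0 FPKM in the proliferating control. Its deposited q for the knockdown was 0.0734. The summed H1, H2A, H2B and H3 genes had the same order of libraries, and the summed H4 genes did not. Of the 16 entries of this list found in the table, 5 were measured, with medians of 0.82 for the knockdown and -0.24 for maturation. No entry of the list was called for either, beside 9.05% of all entries tested for the knockdown and 1.75% for maturation. The knockdown median was 0.21 with a pseudocount of 5 FPKM and 0 over all 16 entries with no filter on low values, so it rests on few genes. The maturation median was -0.036 with no filter. They summed to 293 FPKM in knockdown cells and 196 FPKM in the maturing control, against 184 FPKM in the proliferating control, and 6 of the 16 were listed at 0 in all 3 libraries. Rmrp was listed at 0 in the knockdown and below 0.2 FPKM in both controls, and Rpph1 was below 1 FPKM in all 3 libraries. The part of these RNAs in the histone values was not tested.

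The red cell label was checked against markers: all 15 erythroid markers were measured, and no lymphocyte or stromal marker reached 1 FPKM. Erythroid markers summed to 1025 FPKM in knockdown cells and 3475 FPKM in the maturing control, against 2234 FPKM in the proliferating control, and 3 were called lower in the knockdown in the authors' deposited table. Mast cell and basophil markers summed to 500 FPKM in knockdown cells and 37.7 FPKM in the maturing control, against 70.8 FPKM in the proliferating control, with 7 of 8 called higher in the knockdown and 4 of 8 called lower in maturation. The megakaryocyte markers summed to 9.93 FPKM in knockdown cells and 2.98 FPKM in the maturing control, against 3.14 FPKM in the proliferating control, with 3 of 5 called higher in the knockdown. The granulocyte and monocyte markers summed to 11.8 FPKM in knockdown cells and 5.03 FPKM in the maturing control, against 4.77 FPKM in the proliferating control, with 2 of 7 called higher in the knockdown and 2 listed at 0 in all 3 libraries. In each of these last lists 2 markers reached 1 FPKM in any library, so the calls include genes below that level. Over all tested entries, 5.81% were called higher and 3.24% lower in the knockdown, and 0.584% higher and 1.17% lower in maturation. The part of these cell type differences in the histone values was not tested, and a different number of cells cannot be told apart from a different amount of RNA per cell. Among genes below 0.03 FPKM, the commonest ratio of values put the depth of the knockdown library at 1.44 times that of the proliferating control. For the maturing control it was 1.54 times. These ratios were held by 260 of 1807 genes for the knockdown and 129 of 2078 for the maturing control. They stand for depth only if those genes held equally many fragments in both libraries, which was not checked. The absolute depth is unknown, so no counting interval was computed.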

How the data were processed

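RNA of mouse erythroblasts was sequenced in 1 library per group. Per the submitters' processing notes, Cufflinks 2.0.2, Cuffdiff, FastQC 0.10.1 and mm9 were used. The authors deposited FPKM values per gene and library, with p-values and q-values for each pair of libraries. The deposited log2 ratio and test statistic were read as scores, since infinite ratios are written as a very large number. The table held 65535 rows, of which 19067 set the knockdown against the maturing control and end at Slc2a13 in alphabetical order, where the other comparisons have 23234 each. The knockdown library was matched by the target in its name and the number in its title.

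Log2 ratios were computed from FPKM + 1, which understates low genes, for entries at 1 FPKM or more in any library. Scaling moved the median of all genes by less than 0.1 on the log2 scale. No test was run. Standard errors are the deposited log2 ratio divided by its statistic. Starts were raised by 1 base, since entry lengths showed counting from 0. Lists were matched by exact symbol. The members, lists and rule for naming genes (called members, the 4 most abundant per type, the extreme ratios and set list genes) were chosen with earlier results of these data known. Ratio steps were tested on simulated data. Other members and Mcm3 were named after their values were seen. Python 3.11.15, pandas 2.3.3, numpy 2.4.6 and matplotlib 3.10.9 were used.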

Additional observations from a re-analysis of the deposited data

How the results depend on the processing

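The alternatives for the histone genes were other pseudocounts, filters and scalings, the mean in place of the median, and leaving out entries that name several genes. Leaving out untested entries, the alternatives for the pairs, and those for the gene lists, were chosen after seeing the data. A value was taken as unmoved when it shifted by less than the median standard error of the authors' model, 0.545 for the knockdown and 0.542 for maturation, or for a single gene its own standard error. A count was unmoved within 1.5 times. By that measure the count of histone genes at or above 1 on the log2 scale in the knockdown moved in 3 settings: it was 4 as reported, 11 with a pseudocount of 0.1 FPKM, 0 with one of 5 FPKM and 9 centred on abundant genes. The knockdown median of RNAs without a poly(A) tail, 0.82 as reported, moved to 0.21 with a pseudocount of 5 FPKM and to 0 with no filter on low values. The other 156 of 161 values for histone genes as a whole and for lists did not move, nor did 406 values for types, pairs and single genes. That measure is wide, since it exceeds the median over all histone genes, 0.43 for the knockdown and 0.16 for maturation. Such a median could fall to 0 and still count as unmoved, so the tally does not show that small values are stable. The counts of called histone genes, 0 as reported, could not move under stricter filters. The median over all histone genes ranged from 0.27 to 0.51 for the knockdown and from 0.14 to 0.17 for maturation. The median of variant histones for the knockdown and that of H1 genes for maturation changed sign in 1 setting each, as given above. No paired analysis was possible because each group had 1 library. Within types, copies share fragments, which no alternative here could undo.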
